A study of Homo sapiens with 4 samples.

Results

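Protein tyrosine phosphatases remove phosphate from tyrosine residues, and dual-specificity phosphatases also from serine and threonine. Members were the genes whose only symbol in the platform annotation was DUSP or PTPN with a number, or PTPR with a letter and at most 1 digit. This gave 56 of 19775 genes with a probe set of a single symbol, measured through 144 probe sets. The rule uses names and no signal values, but this family was picked for description with earlier results of these data known. By role, 4 were nuclear inducible mitogen-activated protein (MAP) kinase phosphatases, 3 were cytoplasmic phosphatases of the kinase ERK, 3 were phosphatases of the kinases JNK and p38, 12 were atypical dual-specificity phosphatases, 17 were non-receptor and 17 were receptor-type tyrosine phosphatases. Each gene was read at its brightest probe set, by mean log2 signal over the 4 arrays.

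Z138, an established line, comes from mantle cell lymphoma, a cancer of B cells in which the transcription factor SOX11 is often present. Cells carried stable lentiviral short hairpin RNAs, scrambled ones in the 2 control samples (shControl.1 and shControl.2) and ones against SOX11 in the other 2 samples (shSOX11.1 and shSOX11.3), with 1 Affymetrix U133 Plus 2.0 array each. The question set by the design was which transcripts depend on SOX11. All 4 samples share the line and the lentiviral transduction, each is a different construct, and the design text calls them transduced clones. The labels name no separate cultures. A p-value here thus reflects no more than the spread among these 4 samples, in which construct, clone and technical differences cannot be told apart.

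In B cells these enzymes stand on both sides of antigen receptor signalling. The receptor-type phosphatase PTPRC (CD45) activates SRC family kinases by removing their inhibitory phosphate. PTPN6 (SHP-1) is recruited by inhibitory receptors and dampens the signal, and PTPN22 acts against SRC and SYK family kinases. Further downstream, MAP kinase phosphatases such as DUSP2, DUSP5 and DUSP6 are induced by ERK signalling and switch it off again, which makes their transcripts a common readout of the pathway.

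SOX11 signal was 797 and 787 with the control hairpins and 335 and 339 with those against SOX11, so both hairpins left 42.5% of the control level (log2 change -1.23, SE 0.15, limma adjusted p = 0.132 over 11906 genes). The B-cell marker MS4A1 (CD20) was bright on every array, between 6823 and 8358, and CCND1, the cyclin activated in mantle cell lymphoma, lay between 8610 and 10317. CD5, another marker of that lymphoma, was under the signal threshold of 24.8 on the 4 arrays, where that threshold is the median of all values. Of the 7 B-cell markers measured, 5 were above it on all 4 arrays, while CD22 was at 4.94 on shSOX11.3 and CD37 ranged from 6.91 to 30.4. MS4A1, CD79B, PAX5 and CD22 were lower on both shSOX11 arrays, and CD79A, BLK and CD37 overlapped between the groups. Of the markers of other cells, 4 of 12 for T and NK cells, 3 of 9 for myeloid cells, 3 of 4 for erythroid cells and 5 of 11 for epithelial and stromal cells passed the signal filter, which asks for a signal above the threshold on at least 2 arrays. Among defining ones, CD3D and CD3E were at most 29.3, CD14 at most 5.66 and EPCAM at most 14.4. Others in the same lists were above the threshold on all 4 arrays, among them CD3G (129 to 207), CD247 (67.1 to 114), COL1A1 (881 to 1063) and PECAM1 (212 to 483). The myeloid receptors CSF1R, at 15.1 and 8.98 against 25.7 and 28.9, and CSF3R, at 8.51 and 7.67 against 30.6 and 30.3, exceeded it on the shSOX11 arrays alone. Their passing of the filter thus had the difference built in. CD14, LYZ and ELANE of the same list, under the threshold on all 4 arrays, went the other way, lower on both shSOX11 arrays. Summed signals of the B-cell markers (7 genes) were 11572 and 10943 with the control hairpins against 8424 and 9922. MS4A1 made up 8358 of the 11572 on shControl.1. The sums of the T and NK markers were 449 and 435 against 393 and 359. Those of the other lists overlapped, at 153 and 122 against 148 and 137 for myeloid and 201 and 158 against 178 and 147 for erythroid markers. For epithelial and stromal markers they were 1417 and 1478 against 1685 and 1415. For beta-actin, whose control probe sets read both ends of the transcript, the 3′ signal over the 5′ signal was 11.6 on each shControl array but 7.29 and 5.31 on shSOX11.1 and shSOX11.3, and this ratio depends on how long the labelled RNA is. The same ratio for GAPDH was 0.978 and 1.06 on the shControl arrays against 1.01 and 1.03, and overlapped between the groups. CSF1R, CSF3R, the beta-actin ratio and the sums of the B-cell and of the T and NK markers separated the groups. Their part in the results below was not tested. Fewer cells of a kind and less RNA per cell cannot be told apart in bulk samples.

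Of the 56 members, RefSeq (GRCh38.p14) gave a promoter window for 49. The stretches printed here are the 250 bases before a start site, 5′ to 3′ on the gene's strand. They belong to the 3 members whose group difference had the smallest p (PTPN6, which has separate starts, PTPN18 and PTPN22) and to PTPRO. PTPRO was taken as an example with a SOX-type match in its downstream window, and its upstream window, not printed, holds none. DUSP3, DUSP28, PTPN3 and PTPRE, also past the filter, had matches too. SOX proteins bind short sites around the letters ACAAAG or ACAATG, and both were searched on both strands. Matches are in capitals, and the PTPRO match is ACAAAG on the opposite strand.
PTPN6 upstream start, chr12:6946327-6946576, + strand: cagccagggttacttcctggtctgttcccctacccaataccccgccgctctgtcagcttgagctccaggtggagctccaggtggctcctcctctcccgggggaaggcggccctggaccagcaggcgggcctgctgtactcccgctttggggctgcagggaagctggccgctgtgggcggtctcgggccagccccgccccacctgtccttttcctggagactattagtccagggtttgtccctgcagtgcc
PTPN6 downstream start, chr12:6951106-6951355, + strand: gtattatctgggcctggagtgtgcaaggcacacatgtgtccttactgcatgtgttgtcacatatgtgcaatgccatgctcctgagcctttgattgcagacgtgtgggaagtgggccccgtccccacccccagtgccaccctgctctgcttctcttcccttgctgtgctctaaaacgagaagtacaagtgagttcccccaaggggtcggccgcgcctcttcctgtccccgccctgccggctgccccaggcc
PTPN18, chr2:130355806-130356055, + strand: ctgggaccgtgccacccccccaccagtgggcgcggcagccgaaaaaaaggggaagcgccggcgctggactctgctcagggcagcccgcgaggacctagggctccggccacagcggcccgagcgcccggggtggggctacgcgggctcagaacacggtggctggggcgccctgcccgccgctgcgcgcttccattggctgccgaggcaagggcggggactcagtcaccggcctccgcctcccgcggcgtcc
PTPN22, chr1:113871713-113871962, - strand: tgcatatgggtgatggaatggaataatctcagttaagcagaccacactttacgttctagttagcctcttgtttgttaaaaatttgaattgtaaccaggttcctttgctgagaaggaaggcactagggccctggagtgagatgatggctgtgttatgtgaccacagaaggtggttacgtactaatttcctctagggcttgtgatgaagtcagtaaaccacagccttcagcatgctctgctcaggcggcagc
PTPRO downstream start, chr12:15546361-15546610, + strand: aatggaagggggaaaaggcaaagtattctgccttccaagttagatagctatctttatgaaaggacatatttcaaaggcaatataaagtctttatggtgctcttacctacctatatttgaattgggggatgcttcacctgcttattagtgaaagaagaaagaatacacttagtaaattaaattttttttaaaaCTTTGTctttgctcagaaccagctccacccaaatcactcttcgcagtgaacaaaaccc
Over all 35116 windows of this length 21.2% held a match, against 13 of the 74 windows of members (17.6%). The printed windows of PTPN6, PTPN18 and PTPN22 hold neither set of letters, which says nothing about SOX11 binding elsewhere.

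No phosphatase passed the adjusted threshold, and slightly more of them than of all genes had a lower mean with shSOX11, a difference that was not tested. Of the 56, 37 passed the signal filter, 33 of them with all 4 arrays above the threshold. The median log2 change of the 37 was -0.10 (shSOX11 minus shControl), with 25 lower (67.6%) and 12 higher. The median was -0.06 over the 11906 genes tested, of which 58.1% were lower. With each array centred on its median the split of the members was 19 lower and 18 higher, with a median of -0.02 against 0.02 over all genes. With the mean of probe sets, which left 29 members, the medians were -0.14 and -0.03. Past a limma adjusted p of 0.05 there were 0 members, as there were 0% of all genes, and the members' smallest adjusted p was 0.547. At an unadjusted limma p under 0.05 there were 4 members (10.8%) against 8.42% of all genes. Of these, PTPN6, PTPN18 and PTPRU were lower (8.11% of the members, 5.01% of all genes) and PTPN22 was higher (2.70% of the members, 3.42% of all genes). PTPRU passed the filter through the shControl arrays alone, so a difference was built into its passing. The rule of size, at least 1.5-fold between every shSOX11 and every shControl array, was met by PTPRU alone (2.70% of members), against 2.65% of all genes, 1.90% lower and 0.748% higher. The groups did not overlap in 15 members (40.5%), 11 lower and 4 higher, against 41.0% of all genes, 24.9% lower and 16.1% higher. With 2 arrays in each group, the smallest two-sided p of an exact permutation test is 0.333. In the fits with an array left out, the error comes from the other group's pair alone. The counts from those fits, which follow, are therefore no measure of change. Past the adjusted threshold, the count of members and that of all genes both turned on which array was left out. Unadjusted, the count was 11 of 37 without shSOX11.1, when 24.9% of all genes passed, and 6 without shSOX11.3, when 15.4% did. It was 0 without shControl.1 and without shControl.2, with 2.86% and 3.07% of all genes.

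**Figure D1:**
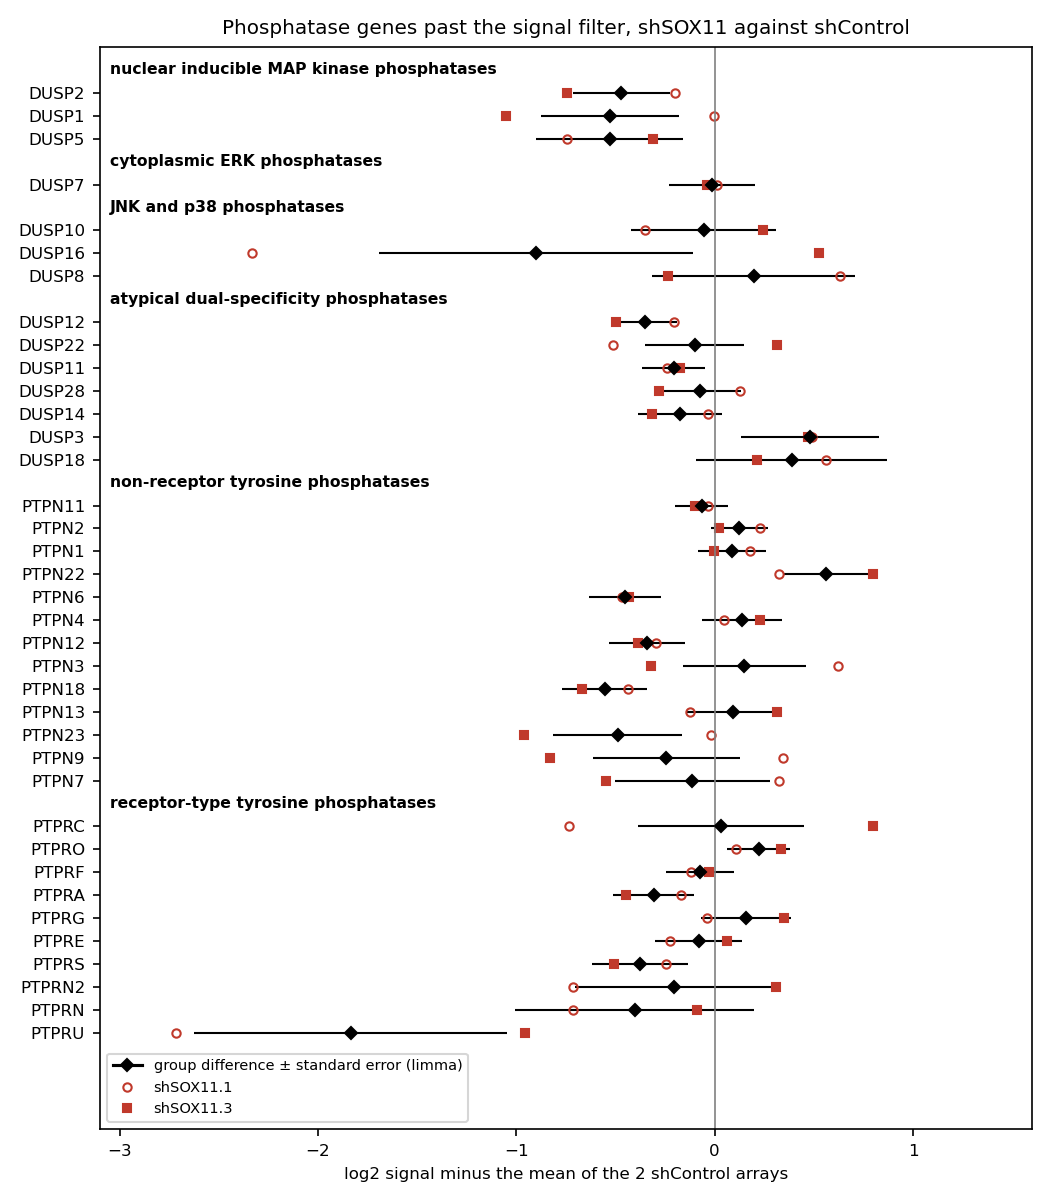
Log2 signal on the shSOX11 arrays minus the mean of the 2 shControl arrays for the 37 phosphatase genes past the filter, by role. Black diamonds are the group difference with limma's standard error as the bar, open red circles are shSOX11.1 and filled red squares shSOX11.3. PTPN6, PTPN18 and PTPN22 keep both red points on one side of 0, and for PTPRC and DUSP16 they lie on opposite sides.

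Among the non-receptor phosphatases 13 of 17 passed the filter, 7 lower and 6 higher, with a median log2 change of -0.06. PTPN6, the inhibitory phosphatase of receptor signalling, was at 245 and 290 on the shControl arrays and at 193 and 197 on the shSOX11 arrays. Both shSOX11 arrays lay below both shControl arrays, 1.37-fold lower in the mean (log2 means 8.06 ± 0.17 and 7.61 ± 0.02, SD, n = 2 each). The log2 change was -0.45 with a standard error of 0.18 (limma adjusted p = 0.563). PTPN6 has 1 probe set here, so no second reading is at hand.

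PTPN18, which acts on receptor tyrosine kinases, was at 146 and 147 on the shControl arrays and at 108 and 92.0 on the shSOX11 arrays. The control values were nearly equal and both shSOX11 values were lower (log2 change -0.55, SE 0.21, limma adjusted p = 0.548). Its second probe set past the filter, at 87.3 and 138.3 against 104 and 75.7, overlapped between the groups, with a change of -0.30. With all 3 of its probe sets averaged the change was -0.96, since the third, at most 5.30 on the 4 arrays, was lower still.

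PTPN22 was at 188 and 227 on the shControl arrays and at 259 and 360 on the shSOX11 arrays. It was the 1 member higher at an unadjusted p under 0.05 (1.48-fold, log2 change 0.56, SE 0.22, limma adjusted p = 0.547). The change was 0.80 without shSOX11.1 and 0.32 without shSOX11.3. Of its other probe sets past the filter, 1 overlapped between the groups, at 184 and 162 against 124 and 265 (0.07), and 1 did not, at 36.7 and 32.3 against 41.5 and 87.4 (0.81). At all 3 the highest value was that of shSOX11.3.

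**Figure D2:**
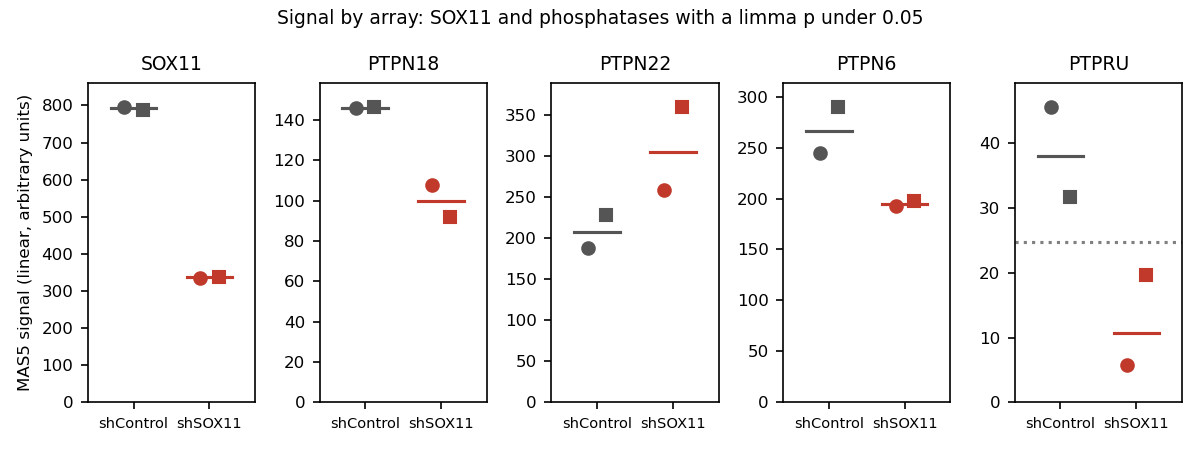
MAS5 signal on a linear axis from 0 for SOX11 and for the 4 phosphatases with an unadjusted limma p under 0.05, 1 point per array (circles are replicate 1 of each group, squares the other replicate) with the geometric mean of each group as a line. Every panel has its own scale, the dotted line in the PTPRU panel is the signal threshold of 24.8, and the shSOX11 points lie below the shControl points in all panels but that of PTPN22.

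PTPN11 (SHP-2), which relays growth factor signals to RAS and ERK, was at 4150 and 3910 on the shControl arrays and at 3939 and 3766 on the shSOX11 arrays at its brightest probe set. The groups overlapped there (log2 change -0.06, SE 0.13, limma adjusted p = 0.898). The other 3 of its 4 probe sets past the filter had each shSOX11 value above each shControl value. The first of them read 346 and 350.6 against 528 and 893, a change of 0.98 (limma adjusted p = 0.439 over 28202 probe sets). The second read 94.6 and 97.6 against 135 and 222, a change of 0.85 (limma adjusted p = 0.517). The third read 14.3 and 27.0 against 33.7 and 46.3, a change of 1.01, with 1 array under the threshold. The mean over the 6 probe sets of PTPN11 gave 0.74. The probe sets of this gene thus disagreed in direction, and signals of different probe sets cannot be set against each other as amounts. Of the 21 members with more than 1 probe set past the filter, 14 had probe sets of both directions. The like share over all genes was not taken, so this count is not read as a trait of the family. With every probe set of the family taken on its own, 6 of 72 lay under an unadjusted 0.05 (3 lower and 3 higher), against 8.26% of all probe sets.

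PTPN2 (TC-PTP), which acts on JAK kinases and STAT proteins, was at 1905 and 1927 on the shControl arrays and at 2244 and 1943 on the shSOX11 arrays. The groups did not overlap, but shSOX11.3 lay close to the higher control (log2 change 0.12, SE 0.14). Of its 6 probe sets past the filter 4 were higher and 2 lower. Its close relative PTPN1 (PTP1B) was at 314 and 288 against 340 and 300, overlapping (0.09, SE 0.17). PTPN7, a phosphatase of MAP kinases in blood cells, was at 64.0 and 48.1 against 69.5 and 37.9, with the shSOX11 arrays on both sides of the controls (-0.11, SE 0.39).

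The other non-receptor members fell between a log2 change of -0.49 (PTPN23) and 0.15 (PTPN3). PTPN12 (PTP-PEST), which acts on adhesion proteins, was at 178 and 168 against 141 and 132, with both shSOX11 arrays lower (-0.34, SE 0.19). PTPN23, active in endosomal sorting, was at 110 and 112 with the control hairpins, 110.0 with shSOX11.1 and 57.2 with shSOX11.3, so its difference came from 1 array. PTPN5, PTPN14, PTPN20 and PTPN21 were under the threshold on all 4 arrays, which gives no direction for them.

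**Figure D3:**
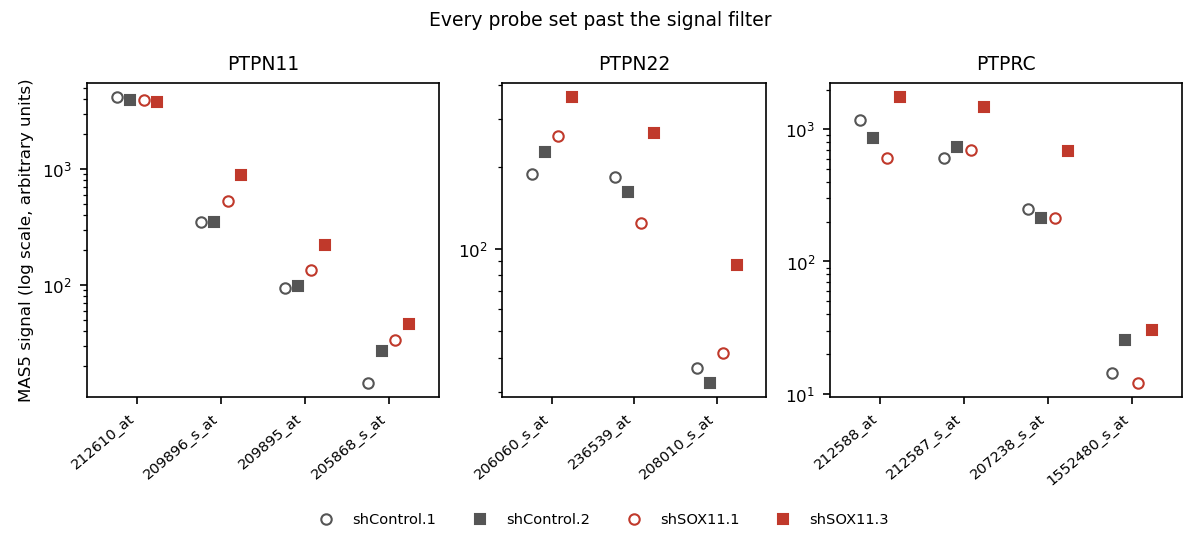
MAS5 signal on a log axis at every probe set past the filter of PTPN11, PTPN22 and PTPRC, with shControl in grey and shSOX11 in red (open circles are replicate 1, filled squares the other replicate). The brightest PTPN11 probe set shows 4 nearly equal points while the other 3 are higher in red, and shSOX11.3 is the highest point at every PTPRC probe set.

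Of the 17 receptor-type members 10 passed the filter, 7 lower and 3 higher, with a median log2 change of -0.14. PTPRC was at 1182 and 853 with the control hairpins, 603 with shSOX11.1 and 1748 with shSOX11.3. The shSOX11 arrays were the lowest and the highest of the 4, so the group difference was 0.03 (SE 0.42) while the arrays stood at -0.74 and 0.80 from the control mean. At its next probe sets PTPRC read 606 and 736 against 694 and 1481, and 249 and 212 against 213 and 685. At these the value of shSOX11.1 lay within the control range and that of shSOX11.3 above it. shSOX11.3 was the highest array at 5 of 5 PTPRC probe sets, whereas the low value of shSOX11.1 held at the brightest and at 1 dim probe set. The direction of PTPRC therefore turned with the array left out, to 0.80 without shSOX11.1 and to -0.74 without shSOX11.3.

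PTPRO, of which a truncated form occurs in lymphocytes, was at 619 and 688 on the shControl arrays and at 704 and 822 on the shSOX11 arrays. The groups did not overlap (log2 change 0.22, SE 0.16, limma adjusted p = 0.694), and its second probe set, at 60.0 and 59.8 against 57.6 and 88.1, was high on shSOX11.3 alone. PTPRF (LAR), a receptor of cell contacts, was at 265 and 286 against 254 and 270, overlapping (-0.07, SE 0.17). Its next probe set overlapped as well (0.09). A dimmer one past the filter did not, at 39.7 and 49.2 against 23.1 and 27.7 (-0.81), with shSOX11.1 under the threshold. PTPRA, which like PTPRC activates SRC kinases, was at 162 and 172 against 149 and 123, with both shSOX11 arrays lower (-0.31, SE 0.21). All 3 of its probe sets past the filter had a lower mean, but only the brightest separated the groups. PTPRS was at 109 and 97.7 against 87.0 and 72.8, also without overlap (-0.38, SE 0.24), but its second probe set did not separate the groups (-0.01). PTPRE, PTPRG, PTPRN and PTPRN2 overlapped between the groups, with changes between -0.40 and 0.16.

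PTPRU, a receptor of the cell adhesion type, was at 45.7 and 31.8 on the shControl arrays and at 5.80 and 19.7 on the shSOX11 arrays. Both shSOX11 values were under the threshold, so only a bound holds, at least 1.53-fold lower (fitted log2 change -1.84, SE 0.79, limma adjusted p = 0.585). The fitted change was -0.67 with a pseudocount of 32. PTPRK, its relative of the same adhesion type, was at 14.9 and 13.4 against 1.34 and 4.32, under the threshold on all 4 arrays, and is not a measured difference. PTPRB, PTPRD, PTPRH, PTPRM and PTPRZ1 were likewise under the threshold on all 4 arrays, and PTPRR exceeded it on shSOX11.3 only, at 25.7.

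The nuclear inducible MAP kinase phosphatases were lower in the mean in all 3 members past the filter, with 0 of 3 at an unadjusted limma p under 0.05. DUSP2 (PAC-1), which is induced in activated lymphocytes, was at 174 and 221 on the shControl arrays and at 171 and 117 on the shSOX11 arrays. The shSOX11.1 value lay just under the lower control, so the separation rested on shSOX11.3 (log2 change -0.47, SE 0.24, limma adjusted p = 0.616). DUSP1 (MKP-1), a broad MAP kinase phosphatase of the early stress response, was at 189 and 131 against 157 and 76.1, overlapping, with shSOX11.1 at -0.0034 and shSOX11.3 at -1.05 from the mean of the controls (group change -0.53, SE 0.35). A second, dim DUSP1 probe set went the other way (1.16). DUSP5, a nuclear phosphatase of ERK, was at 51.9 and 54.1 against 31.6 and 42.7, lower on both shSOX11 arrays (-0.53, SE 0.37, limma adjusted p = 0.685). DUSP4 was at most 11.4 and gives no direction.

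Of the cytoplasmic ERK phosphatases, 1 of 3 passed the filter. DUSP7 was at 106 and 111 against 109 and 106, overlapping (log2 change -0.01, SE 0.22). DUSP6 (MKP-3), the classical feedback inhibitor of ERK, was at 18.2 and 19.7 on the shControl arrays and at 27.6 and 23.7 on the shSOX11 arrays. Its value exceeded the threshold of 24.8 on shSOX11.1 alone, so it was not tested. DUSP9 did so on shControl.2 alone (35.1, with 2.83 on shControl.1).

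At their brightest probe sets the phosphatases of JNK and p38 did not separate the groups. DUSP10 was at 67.2 and 46.0 against 43.6 and 65.7 (log2 change -0.05, SE 0.37), and DUSP8 at 24.9 and 35.9 against 46.3 and 25.4 (0.20, SE 0.51). DUSP16 was at 65.6 and 52.5 with the control hairpins, 11.7 with shSOX11.1 and 84.6 with shSOX11.3. The hairpin arrays thus lay at -2.33 and 0.53 from the control mean (group change -0.90, SE 0.79). A dimmer DUSP16 probe set was at 46.3 and 26.1 against 4.54 and 6.74, below the threshold on both shSOX11 arrays. It did separate the groups (-2.65), but it passed the filter through the shControl arrays alone, so a difference was built into its passing.

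Of the atypical dual-specificity phosphatases 7 of 12 passed the filter, 5 lower and 2 higher, with 0 of 7 at an unadjusted limma p under 0.05. DUSP12 was at 977 and 1000.4 on the shControl arrays and at 857 and 700.5 on the shSOX11 arrays. Both shSOX11 arrays were lower (log2 change -0.35, SE 0.16, limma adjusted p = 0.592), and without shSOX11.1 the change was -0.50. DUSP22, which acts on kinases of T-cell receptor signalling, was at 767 and 763 with the control hairpins, 536 with shSOX11.1 and 952 with shSOX11.3. The hairpin arrays again lay on opposite sides (group change -0.10, SE 0.25), and its second probe set was at 219 and 257 against 259 and 299. DUSP11, which acts on RNA 5′ ends, was at 754 and 642 against 590 and 616, lower on both shSOX11 arrays (-0.21, SE 0.16). DUSP3 (VHR), a small phosphatase of ERK and JNK, was at 56.3 and 36.3 against 63.5 and 62.7, higher on both (0.48, SE 0.35). DUSP14, DUSP18 and DUSP28 overlapped between the groups. DUSP15, DUSP21, DUSP23 and DUSP26 were under the threshold on all 4 arrays, and DUSP19 exceeded it on shControl.1 alone, at 25.1.

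The arrays with hairpins against SOX11 differed more from each other than the control arrays did. Over the 37 members the median size of the log2 difference was 0.18 between shControl.1 and shControl.2 and 0.39 between shSOX11.1 and shSOX11.3, against 0.17 and 0.30 over all genes tested. The difference between the shSOX11 arrays was the wider one in 27 of the 37 members (73.0%) and in 63.5% of all genes. At least 2-fold apart on the shSOX11 arrays were 6 members (16.2%, against 8.31% of all genes), namely DUSP16 (7.25-fold), PTPRU (3.39-fold), PTPRC (2.90-fold), PTPN9 (2.26-fold), DUSP1 (2.07-fold) and PTPRN2 (2.03-fold). On the shControl arrays it was 1 member, DUSP18 (2.48-fold, 2.70% against 5.22% of all genes). The SOX11 signal itself was alike on the shSOX11 arrays, as given above. In 15 of the 37 members the shSOX11 arrays lay on opposite sides of the control mean, in 16 both lay below it and in 6 both above. The like shares over all genes were not taken, so these counts are not read as a trait of the family.

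**Figure D4:**
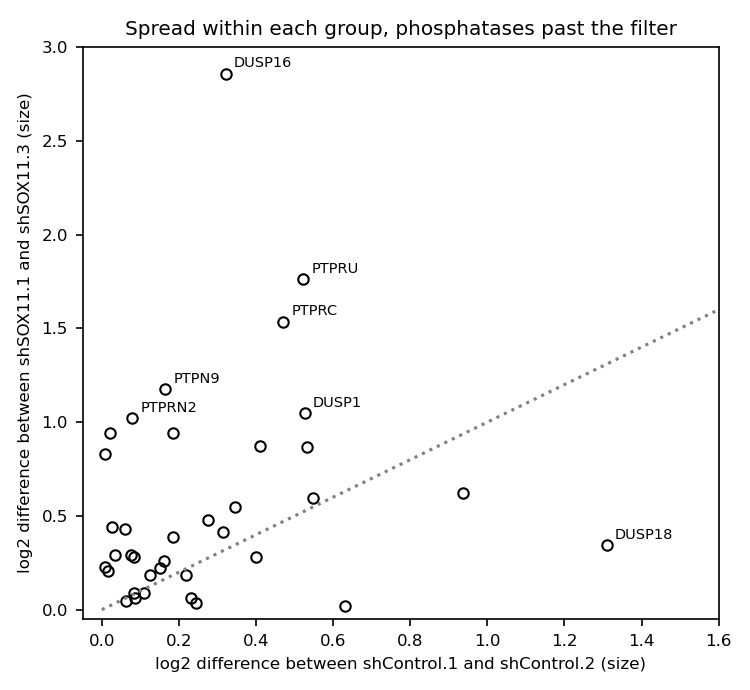
Size of the log2 difference between the 2 arrays of a group, shControl on the horizontal and shSOX11 on the vertical axis, 1 point per phosphatase past the filter, with equal differences along the dotted line. Members at least 2-fold apart in a group are named, 27 of 37 points lie above the line, and DUSP16, PTPRU and PTPRC are the highest.

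The genes these enzymes work with were taken from lists of textbook knowledge, and 0 of them passed a limma adjusted p of 0.05. The counts below stand beside 58.1% of all genes lower, and 5.01% lower and 3.42% higher at an unadjusted limma p under 0.05. The first list held 22 inhibitory receptors, adaptors and related signalling genes around PTPN6 and PTPN11, not all of which recruit either phosphatase. Of these, 18 were tested, 14 lower and 4 higher (median log2 change -0.18). At an unadjusted limma p under 0.05, 3 were lower and 1 higher. The 3 lower ones were the adaptor DOK3, at 851 and 776 against 560 and 492, and the sialic acid receptor SIGLEC10, at 137 and 144 against 70.8 and 93.2. The last was the PTPN11 adaptor GAB2, at 47.9 and 36.7 against 6.55 and 11.5. GAB2 was under the threshold on both shSOX11 arrays, hence at least 1.69-fold lower, and since it passed the filter through the shControl arrays alone its direction was built into its passing. The higher one was PECAM1, at 212 and 280 against 483 and 387. The shared adaptor GRB2 was at 1453 and 1389 against 1257 and 1394, overlapping.

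A further list held 26 B-cell tyrosine kinases, adaptors and related signalling genes, not all of them targets of PTPRC, PTPN6 or PTPN22. Of these, 23 were tested, 13 lower and 10 higher (median -0.15). At an unadjusted limma p under 0.05, 3 were lower and 1 higher. LCK was at 226 and 228 against 139 and 88.7, FGR at 143 and 125 against 85.9 and 69.1 and STAT6 at 1446 and 1520 against 1227 and 866. JAK2 was at 87.9 and 81.6 against 129 and 210, higher on both shSOX11 arrays.

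Of 22 MAP kinase pathway kinases 16 were measured and tested, 7 lower and 9 higher (median 0.08). The 3 lower at an unadjusted limma p under 0.05 were KSR1, ARAF and MAPK3 (ERK1), the last at 78.8 and 114 against 60.0 and 59.5. MAP2K6, an activator of p38, was higher, at 35.2 and 52.7 against 106 and 73.6. Of the 22 ERK feedback inhibitors and early targets 13 were tested, 10 lower and 3 higher (median -0.30), with 3 lower and 0 higher at an unadjusted limma p under 0.05. They were the immediate early genes EGR1, at 236 and 146 against 75.1 and 97.1, and IER2, at 711 and 647 against 479 and 389, and the feedback inhibitor SPRY2, at 119 and 113 against 80.6 and 75.9.

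Other tyrosine phosphatases that the name rule left out (33 listed, 26 tested) were lower in 12 cases and higher in 14, with a median of 0.02. The 1 under an unadjusted limma p of 0.05 was CDC25B, which activates cyclin-dependent kinases, at 563 and 631 against 446 and 395 (log2 change -0.51, SE 0.16, limma adjusted p = 0.476). PTPRCAP, the protein that associates with PTPRC, was under the threshold on all 4 arrays.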

How the data were processed

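RNA of 4 Z138 samples was measured on 4 Affymetrix U133 Plus 2.0 arrays, and groups came from the sample titles. The deposited values are linear signal intensities, 1 for each probe set. The submitters' processing notes name MAS5 and Affymetrix Expression Console, with versions not given in the sources used here. Each array had a 2% trimmed mean of 150, so no further scaling was applied. MAS5 subtracts mismatch signals, which makes dim probe sets noisy, and having 4 arrays limits precision.

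Of 54675 probe sets 41091 had 1 gene symbol, 1801 several and 11721 none, and 62 were controls. All 56 member symbols matched RefSeq by Entrez identifier. Signals were taken to log2, genes were kept where 2 or more arrays exceeded 24.83, the median over all values, and 11906 genes entered limma 3.58.1 (R 4.3.3, lmFit, eBayes with intensity trend, two-sided, Benjamini-Hochberg over all genes, 2 residual degrees of freedom). Where a group's arrays both lay under the threshold the fold is a bound, the other group's geometric mean over the threshold. The fit was also run on simulated data of equal spread in both groups, unlike these arrays, and no result here rests on it. Named were members at an unadjusted p under 0.05 or 1.5-fold apart on all pairs, the 3 with the highest mean signal in each role, a fixed set of known members, and in each related list up to 4 of the smallest p; the others were added after their values were seen. Members and lists were chosen with earlier results of these data known. Alternatives were other normalizations, a pseudocount, filters, variance models, probe set choices and leaving out each array.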

Additional observations from a re-analysis of the deposited data

How the results depend on the processing

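The log2 change of SOX11 kept its direction under every alternative run and lay between -1.24 and -1.23 with an array left out, where it passed an adjusted p of 0.05 in limma on leaving out shSOX11.1 or shSOX11.3 and not otherwise. The number of phosphatases past that threshold was 0 under all alternatives with 4 arrays, as was that of all genes in each such run by gene. The number at an unadjusted p under 0.05, 4 as reported, was 1 with median centring (8.93% of all genes), 7 of 56 without a filter (7.36%), 2 in limma without the trend (7.5%), and from 0 to 11 with an array left out (2.86% to 24.9%). The number 1.5-fold apart on all pairs, 1 as reported, was 0 with a pseudocount of 32 (0.722% of all genes), with the filter at the 65th percentile (1.43%) and at 2-fold, 2 with the filter at the 35th percentile (4.84%), 6 without a filter (7.15%), and from 2 to 6 with an array left out (6.82% to 11.6%), where fewer pairs are asked for. With 1 shSOX11 array left, the error comes from the shControl pair, which lay closer together, and the lone array is taken to vary as that pair does. The median log2 change of the members, -0.10 as reported, stayed below 0 in all alternatives run, from -0.16 without shControl.2 to -0.02 with median centring. Of 330 alternatives for the 21 named members tested, 30 turned the direction, none of them of PTPN6, PTPN18, PTPN22 or PTPRU. With median centring DUSP7 was at 0.070, DUSP10 at 0.029, PTPN11 at 0.018 and PTPRF at 0.0096. With the mean of probe sets DUSP10 was at 0.12, DUSP22 at 0.066 and PTPN11 at 0.74. On single probe sets DUSP1 was at 1.16, DUSP10 at 0.29, DUSP22 at 0.23, PTPN11 at 1.01, 0.85 and 0.98, PTPN2 at -0.33 and -0.066, PTPRC at -0.0042 and PTPRF at 0.092. With an array left out DUSP7 ranged from -0.044 to 0.017, DUSP10 from -0.35 to 0.24, DUSP16 from -2.33 to 0.53, DUSP8 from -0.24 to 0.63, DUSP22 from -0.51 to 0.31, PTPN1 from -0.0053 to 0.18, PTPRC from -0.74 to 0.80 and PTPN7 from -0.55 to 0.33. The cause of these turns was not tested. No paired analysis was possible because the groups share only 1 construct number.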
